A study of Homo sapiens with 8 samples.

Results

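The enzymes that carry glucose carbon out of glycolysis into sugar phosphates and activated sugars were examined as a set of 31 genes. They were chosen by name from 4 side branches: 10 genes of the pentose phosphate pathway, 10 of the hexosamine and sialic acid pathway, 5 of UDP sugar and galactose (Leloir) metabolism and 6 of mannose and fucose activation. All 31 were among the 58735 genes measured. All 31 were also among the 16239 genes tested, which reached an FPKM (fragments per kilobase of exon, scaled to the size of the library) of 1 in at least 2 of 8 libraries. RNA came from HCT116, an established human colorectal carcinoma line, with 2 libraries in each of 4 groups. These were cells with a control shRNA (short hairpin RNA) kept for 24 h without glucose (0 mM), cells with MAPKAPK2 shRNA 2 at 20 mM glucose, cells with MAPKAPK2 shRNA 1 at 20 mM, and cells with the control shRNA kept for 24 h at 20 mM. MAPKAPK2 is the gene of MK2, a protein kinase downstream of p38 in the response to stress. Every group therefore carried an shRNA, and no knockdown was combined with glucose withdrawal. How long the knockdown cells were kept, and whether each shRNA line was a clone or a pool, are not given in the sources used here. Nothing in the labels says that the libraries of a group came from separate cultures, so all p-values measure the spread between these libraries, which may be technical.

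The pentose phosphate pathway oxidises glucose 6-phosphate to make NADPH, a reducing agent for lipid synthesis and antioxidant defence, and rearranges sugar phosphates to supply ribose for nucleotides. The hexosamine pathway turns fructose 6-phosphate and glutamine into UDP-N-acetylglucosamine (UDP-GlcNAc), the donor for protein O-GlcNAc, N-glycans, proteoglycans and sialic acid. The other branches make UDP-glucose, UDP-glucuronate, UDP-xylose, UDP-galactose, GDP-mannose and GDP-fucose, the building blocks of glycogen and of the sugar coat of an epithelial cell.

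UAP1, PGM3 and GMDS rose and PGD fell with each of the 2 MAPKAPK2 shRNAs. Their promoter sequences are shown because these 4 genes alone of the 31 passed the test described below with each shRNA, in the same direction. Among all genes 18.8% passed with shRNA 2 and 19.8% with shRNA 1. The share of all genes that passed with both was not counted, so the 4 genes only define which sequences are shown. RefSeq (GRCh38.p14) gives the 31 genes 40 promoter windows from 250 bases before to 50 bases after a start site. From the window nearest to the annotated gene start, the longest stretch outside every GENCODE 29 exon is printed, read 5′ to 3′ on the gene's strand. Capitals mark the letters ACGTG or CCAAT on either strand (CACGT and ATTGG are the same motifs read on the other strand). No overlap between these motifs was found in the 4 windows.
UAP1, chr1:162561309-162561505, plus strand: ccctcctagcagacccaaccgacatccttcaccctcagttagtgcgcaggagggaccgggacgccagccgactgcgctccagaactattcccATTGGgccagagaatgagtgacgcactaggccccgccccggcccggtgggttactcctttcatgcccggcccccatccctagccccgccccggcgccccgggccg
PGM3, chr6:83193937-83194150, minus strand: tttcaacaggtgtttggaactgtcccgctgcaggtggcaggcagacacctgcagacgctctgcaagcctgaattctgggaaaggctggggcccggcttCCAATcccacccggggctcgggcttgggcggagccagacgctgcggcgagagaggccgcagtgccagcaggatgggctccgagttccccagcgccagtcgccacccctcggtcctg
GMDS, chr6:2245693-2245747, minus strand: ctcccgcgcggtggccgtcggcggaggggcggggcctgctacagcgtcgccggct
PGD, chr1:10398814-10399043, plus strand: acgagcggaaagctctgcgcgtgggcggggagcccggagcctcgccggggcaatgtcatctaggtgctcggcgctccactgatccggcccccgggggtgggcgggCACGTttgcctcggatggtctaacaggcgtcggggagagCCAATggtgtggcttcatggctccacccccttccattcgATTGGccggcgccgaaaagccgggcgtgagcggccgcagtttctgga
The PGD stretch lies inside the gene as GENCODE draws it, after a more distal first exon, whereas the other 3 stretches lie before the annotated start. Over the full windows that these stretches come from, UAP1 had 1 ACGTG and 1 CCAAT, PGM3 had 1 CCAAT, GMDS had neither, and PGD had 1 ACGTG and 2 CCAAT. RefSeq gives further windows to 3 of these genes: the other PGM3 window held 1 ACGTG and 1 CCAAT, the 2 further UAP1 windows held 1 and 2 ACGTG and no CCAAT, and the other GMDS window held neither. The capitals in the UAP1 stretch mark its CCAAT alone, since its ACGTG lies outside the printed part. Among the 40 windows of the set, 15 held ACGTG and 19 held CCAAT, while 25.8% and 34.5% of the 13610 RefSeq promoter windows of tested genes did, all of the same length. Windows of a gene can overlap, and 2 UAP1 windows share an ACGTG. By the nearest window of each of the 31 genes, 12 genes had ACGTG and 17 had CCAAT. The longer motif CACGTG, which contains ACGTG, was found in the windows of GALT and GMPPA and in 9.57% of the windows of tested genes. TGATGNAA was found in none of the 40 windows and in 1.77% of those of tested genes.

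Gene-assigned reads numbered 14252316 to 19975449 in a library, and an FPKM of 1 was reached by 13821 to 14611 genes. MAPKAPK2 itself had 17.9 and 18.9 FPKM in control cells at 0 mM, 0.982 and 0.7996 FPKM with shRNA 2 and 2.77 and 2.54 FPKM with shRNA 1, against 16.4 and 16.2 FPKM in control cells at 20 mM. The target was thus lower in all 4 knockdown libraries, and lower with shRNA 2 than with shRNA 1. All 6 epithelial markers (EPCAM, CDH1, KRT8, KRT18, KRT19 and CLDN4) reached an FPKM of 1 in all 8 libraries. Of 7 markers of leukocytes, fibroblasts, endothelium and hepatocytes, COL1A1 alone did, at 3.84 to 6.72 FPKM, and the other 6 stayed at or below 0.191 FPKM. The epithelial markers summed to 1834 and 1809 FPKM in control cells at 0 mM, 1597 and 1252 FPKM with shRNA 2 and 1647 and 1440 FPKM with shRNA 1, against 1561 and 1595 FPKM in control cells at 20 mM. Single markers differed with the shRNAs: the mean of CDH1 was 0.716 times the 20 mM control mean with shRNA 2 and 1.91 times with shRNA 1, and that of EPCAM 0.616 and 1.202 times. KRT8 and KRT18 were at 0.655 and 0.650 times with shRNA 2, while KRT19 was at 1.287 times and CLDN4 at 0.809 times. With shRNA 1, KRT8, KRT18, KRT19 and CLDN4 were at 0.939, 0.915, 0.946 and 1.327 times. The mean of COL1A1 was 0.667 times the control mean with shRNA 2 and 0.605 times with shRNA 1. Their part in the members' results was not tested. These are bulk libraries, in which fewer cells of a kind and less RNA per cell cannot be told apart.

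**Figure D1:**
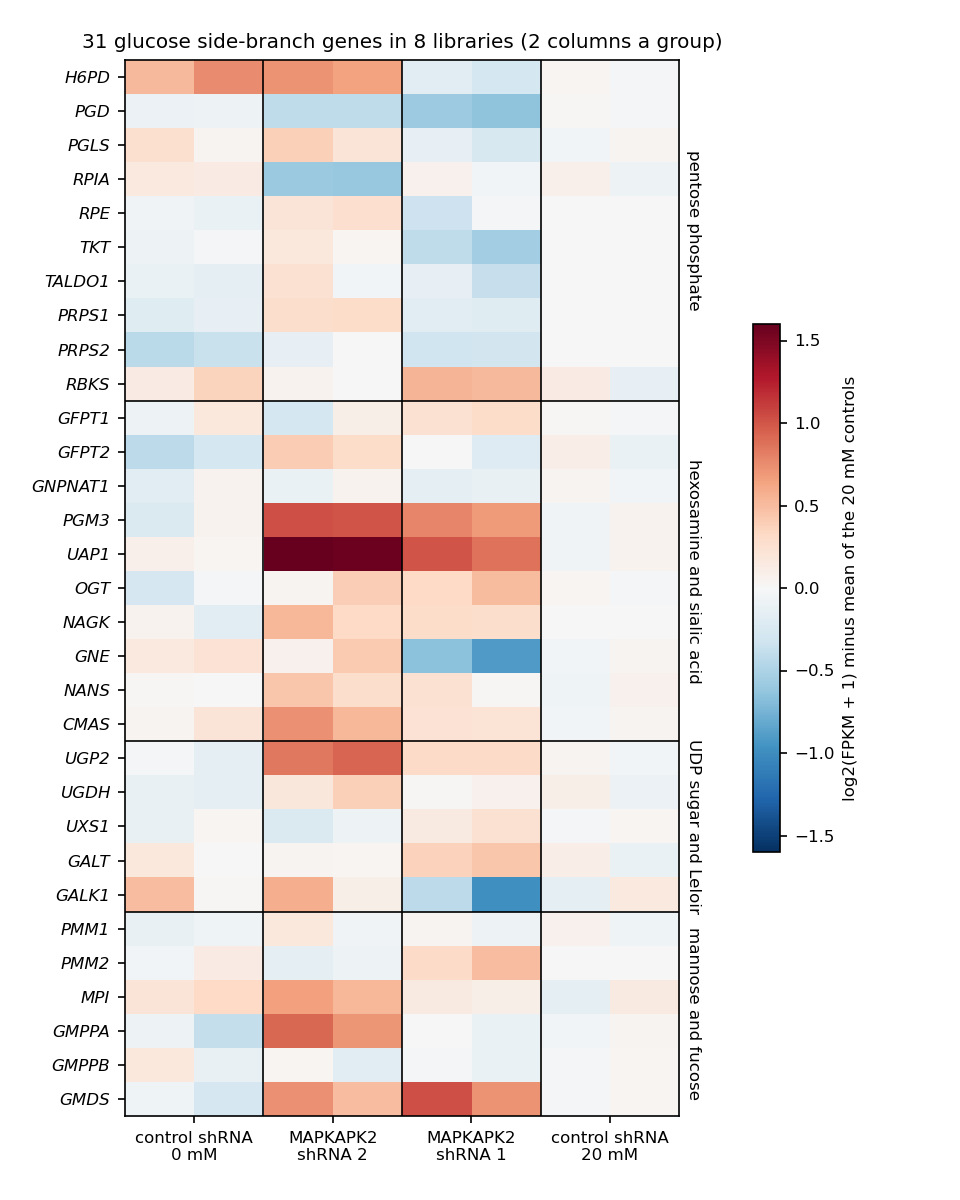
Level of the 31 genes in each of the 8 libraries, as log2(FPKM + 1) minus the mean of the 2 control libraries at 20 mM glucose; rows are genes grouped by branch and columns are libraries, 2 for each group. UAP1 and PGM3 are red in all 4 knockdown libraries and PGD is blue in all 4, while H6PD is red in the 0 mM and shRNA 2 libraries only.

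All of the genes but RBKS (30 of 31) were at 1 FPKM or more in all 8 libraries, and 11 were at 10 FPKM or more in all of them. Reads per gene and library ran from 30 to 9811, and from 117 when RBKS is set aside. By FPKM, which divides by exon length, the pentose phosphate branch held the highest levels: PGD had 65.1 and 63.2 FPKM in the 20 mM controls, TALDO1 had 50.4 and 51.2 FPKM and TKT had 48.3 and 48.03 FPKM. RBKS, the ribokinase that phosphorylates free ribose, was lowest, and it passed the filter through the shRNA 1 libraries and the second 0 mM library. OGT, the enzyme that attaches GlcNAc to proteins, was the most abundant of the hexosamine branch at 32.00 and 30.8 FPKM in the 20 mM controls. GALT, PMM1, PMM2, GMPPB, NAGK, GFPT2, GNE and MPI, like RBKS, stayed under 6 FPKM in every library.

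After MAPKAPK2 knockdown, some but not all members of each branch were called with at least 1 shRNA. No branch was tested as a whole. Members were called at a Benjamini-Hochberg adjusted p under 0.05 over all 16239 genes, in a limma fit of log2(FPKM + 1), a scale that understates the change of genes at low FPKM. With shRNA 2, 11 of 31 members passed, 9 upward and 2 downward; among all genes 18.8% passed, 11.1% upward and 7.73% downward. With shRNA 1, 8 members passed, 4 upward and 4 downward, where 19.8% of all genes passed, 9.35% upward and 10.5% downward. For the mean of both shRNAs, with the same sign required for each, 6 members passed (5 upward, 1 downward), and so did 17.3% of all genes (9.56% upward, 7.77% downward). Under scaling to equal library medians this last count was 5 upward and 2 downward, and 8.55% of all genes then passed upward and 8.84% downward. The members' shares were thus 35.5% with shRNA 2, 25.8% with shRNA 1 and 19.4% for the mean of both, the last being close to that of all genes. All 31 members are protein-coding, as are 11446 of the genes tested. In a fit of protein-coding genes only, 41.9% of members and 33.2% of those genes passed with shRNA 2. With shRNA 1 the shares were 41.9% and 34.6%, and for the mean of both 25.8% and 30.8%. By branch, the pentose phosphate genes gave 2 rises and 2 falls with shRNA 2 and 3 falls with shRNA 1, and the hexosamine and sialic acid genes gave 3 rises with shRNA 2 and 2 rises and 1 fall with shRNA 1. The UDP sugar and Leloir genes gave 1 rise with shRNA 2 and no call with shRNA 1, and the mannose and fucose genes gave 3 rises with shRNA 2 and 2 with shRNA 1. The 2 knockdown libraries lay wholly above or below the 2 controls for 23 members with shRNA 2 and for 23 with shRNA 1, as they did for 57.4% and 65.7% of all genes. The median log2 change of the 31 members was 0.24 with shRNA 2 (0.01 over all genes) and 0.02 with shRNA 1 (-0.01 over all genes), where it was -0.03 without the second 20 mM control. A fit to reads recovered from the FPKM (the read-based fit, limma voom) called 11 members with shRNA 2 (24.2% of all genes), 11 with shRNA 1 (25.5%) and 8 for the mean of both (22.7%). Both knockdowns and the glucose comparison are set against the same 2 control libraries at 20 mM, so their values are not independent of each other.

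Counts of calls against the controls depended on single libraries. Without the first 20 mM control, 3 members passed with shRNA 2 and 2 with shRNA 1, where 6.25% and 5.80% of all genes did. Without the second, 7 and 3 members passed, where 7.09% and 6.21% of all genes did. In a fit of only the groups compared, the calls of RPIA, CMAS, H6PD, PGD, MPI, GMDS and PRPS1 with shRNA 2 and of PMM2 with shRNA 1 were lost. Without the filter on low values those of GMDS with shRNA 2 and of PMM2 and PRPS2 with shRNA 1 were lost, and that of PMM2 was also lost with a pseudocount of 0.1. UAP1 kept its call with each shRNA alone, for their mean and for the difference between them in all 8 fits that left out 1 library.

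**Figure D2:**
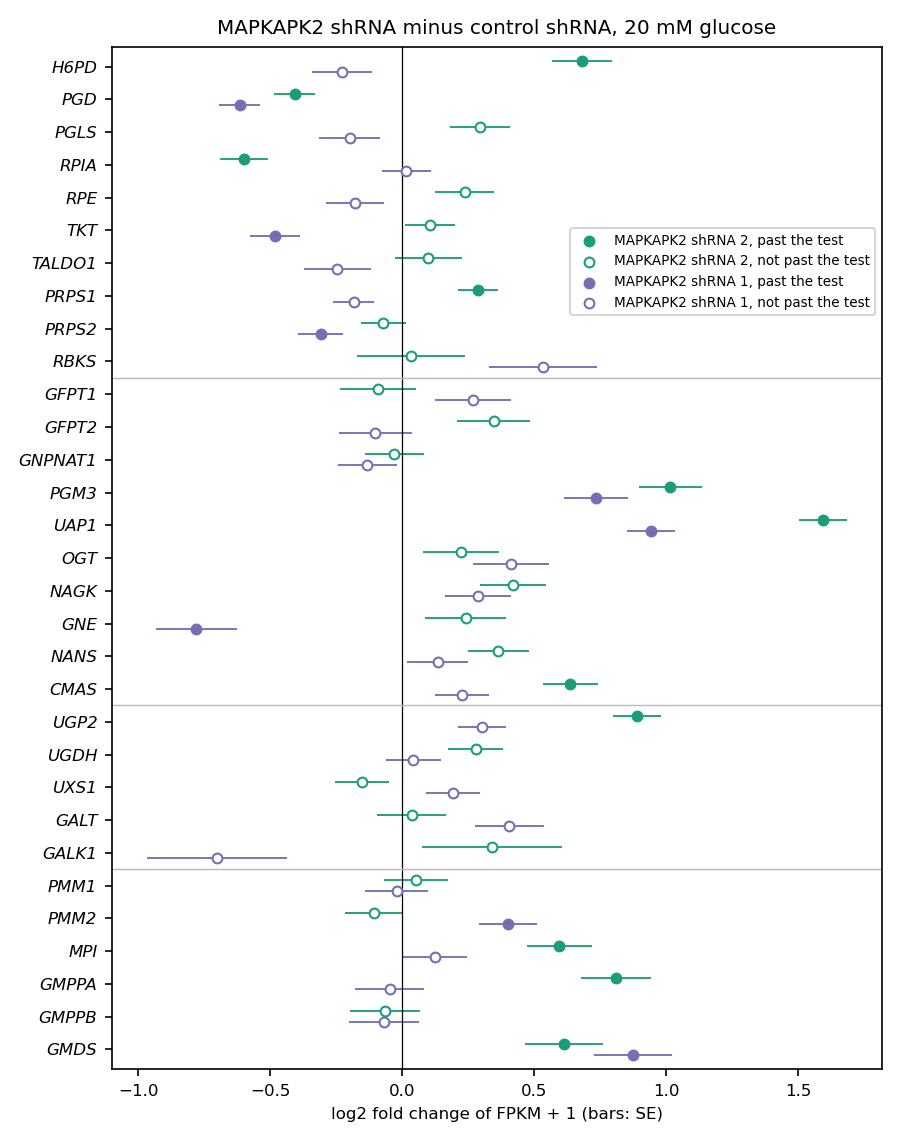
Log2 fold change of FPKM + 1 with MAPKAPK2 shRNA 2 (green) and shRNA 1 (violet) over control shRNA at 20 mM glucose for the 31 genes, grouped by branch, with bars of 1 SE; filled points passed the test over all genes. UAP1 stands furthest to the right with both shRNAs, at 1.59 and 0.94, and GNE furthest to the left with shRNA 1 at -0.78.

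The hexosamine branch held the largest rise with shRNA 2, that of UAP1 at the end of the route to UDP-GlcNAc. UAP1, the pyrophosphorylase that makes UDP-GlcNAc, had 30.5 and 29.7 FPKM with shRNA 2 and 19.7 and 17.9 FPKM with shRNA 1, against 8.91 and 9.74 FPKM in the 20 mM controls. The groups did not overlap, and every shRNA 2 library was above every shRNA 1 library. The mean FPKM was 3.23 times the control mean with shRNA 2 and 2.02 times with shRNA 1. On the log2(FPKM + 1) scale the change was 1.59 ± 0.09 (SE, limma adjusted p = 0.000232) with shRNA 2 and 0.94 ± 0.09 (SE, limma adjusted p = 0.00174) with shRNA 1. PGM3, the mutase one step before it that converts GlcNAc 6-phosphate to GlcNAc 1-phosphate, had 10.03 and 9.86 FPKM with shRNA 2 and 8.33 and 7.69 FPKM with shRNA 1, against 4.21 and 4.63 FPKM in the 20 mM controls. All 4 knockdown libraries were above both controls, with log2 changes of 1.02 ± 0.12 (SE, limma adjusted p = 0.00246) and 0.73 ± 0.12 (SE, limma adjusted p = 0.00831). The PGM3 call with shRNA 1 was lost without the first 20 mM control, where the limma adjusted p was 0.0667, and without the first shRNA 1 library. DOP1A lies on the other strand across 14.8% of PGM3 exon bases, at 1.11 and 1.53 FPKM with shRNA 2 and 2.35 and 2.23 FPKM with shRNA 1, against 1.21 and 1.11 FPKM in the 20 mM controls; its part in the PGM3 reads was not tested.

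The steps before PGM3 did not pass. GFPT1, which commits fructose 6-phosphate to the pathway, had 8.59 and 11.4 FPKM with shRNA 2 and 12.8 and 13.3 FPKM with shRNA 1, against 10.8 and 10.5 FPKM in the 20 mM controls, and log2 changes of -0.09 and 0.27. Its paralogue GFPT2 had 3.88 and 3.52 FPKM with shRNA 2 and 2.700 and 2.203 FPKM with shRNA 1, against 2.99 and 2.42 FPKM in the 20 mM controls. GNPNAT1, the acetyltransferase between these enzymes and PGM3, lay between 10.7 and 12.4 FPKM in all 6 libraries at 20 mM; AL139317.3, listed at 0, lies across 35.6% of its exon bases. Of the enzymes around UDP-GlcNAc, OGT had 32.5 and 41.6 FPKM with shRNA 2 and 39.3 and 44.97 FPKM with shRNA 1, against 32.00 and 30.8 FPKM in the 20 mM controls. All 4 knockdown libraries of OGT were above the controls, but the log2 changes of 0.22 and 0.41 did not pass in this fit; in the read-based fit OGT passed with shRNA 1. NAGK, which salvages free GlcNAc, was likewise above the controls in all 4 knockdown libraries, with log2 changes of 0.42 and 0.29 that did not pass, and passed with shRNA 2 in the read-based fit.

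The sialic acid arm differed between the 2 shRNAs at its first step. GNE, which starts sialic acid synthesis from UDP-GlcNAc, had 3.51 and 4.73 FPKM with shRNA 2 and 1.74 and 1.29 FPKM with shRNA 1, against 3.16 and 3.45 FPKM in the 20 mM controls. Both shRNA 1 libraries were the lowest of all 8, and the change with shRNA 1 was -0.78 ± 0.15 (SE, limma adjusted p = 0.0154). With shRNA 2 it was 0.24 ± 0.15 (SE, limma adjusted p = 0.332) and did not pass. CMAS, which activates sialic acid to its CMP form, had 28.00 and 24.3 FPKM with shRNA 2 and 19.5 and 19.3 FPKM with shRNA 1, against 15.9 and 16.95 FPKM in the 20 mM controls. Its change was 0.64 ± 0.10 (SE, limma adjusted p = 0.00787) with shRNA 2 and 0.23 ± 0.10 (SE, limma adjusted p = 0.178) with shRNA 1, of which the first passed. Over both shRNAs CMAS passed at 0.43 ± 0.09 (SE, limma adjusted p = 0.02), a call lost in 4 of 8 fits that left out 1 library (up to a limma adjusted p of 0.159 without the first 20 mM control). NANS, the synthase between GNE and CMAS, had 7.81 and 6.93 FPKM with shRNA 2 and 6.72 and 5.58 FPKM with shRNA 1, against 5.199 and 5.81 FPKM in the 20 mM controls, and did not pass with either shRNA. The GNE call with shRNA 1 was lost without either 20 mM control or the second shRNA 1 library (highest limma adjusted p 0.0959, for the last).

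**Figure D3:**
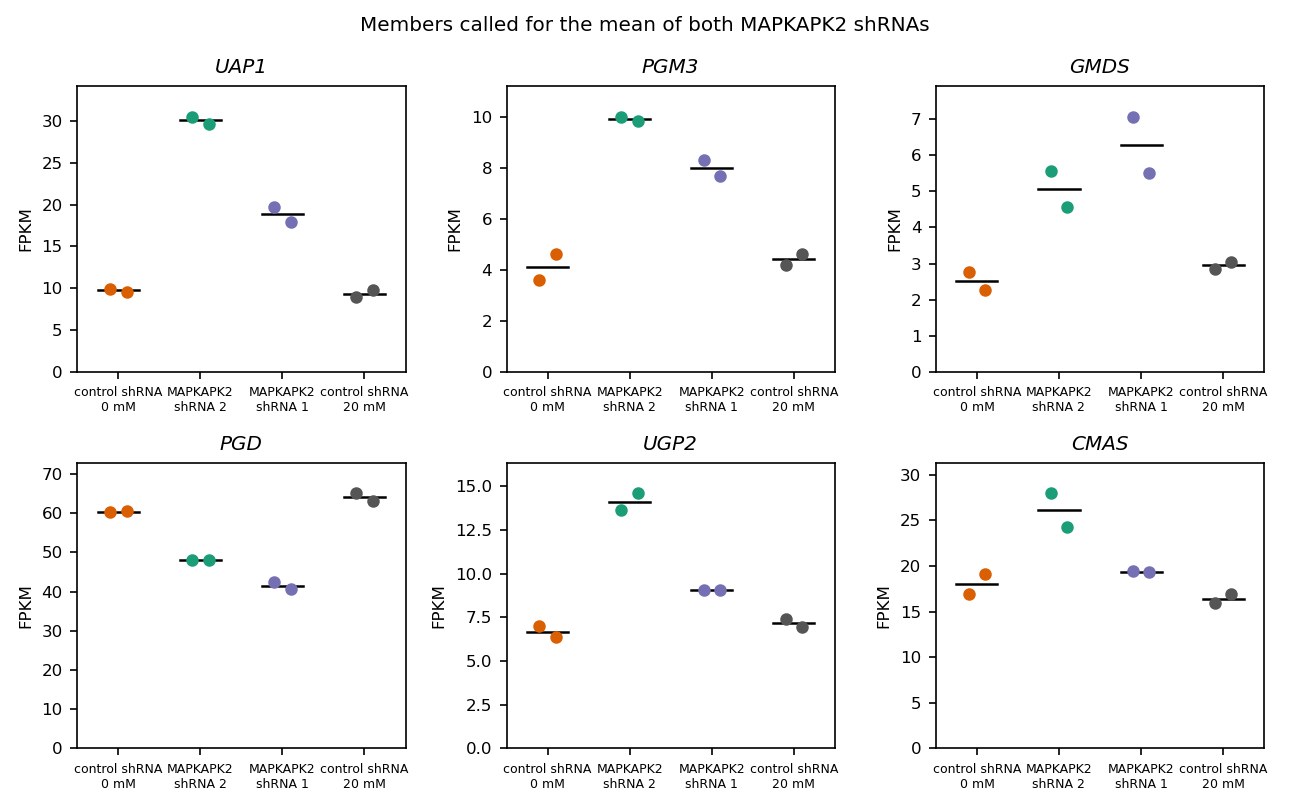
FPKM in each library (points) and the group mean (line) of the 6 genes that passed for the mean of both MAPKAPK2 shRNAs, in control shRNA cells at 0 mM glucose, shRNA 2, shRNA 1 and control shRNA cells at 20 mM. In all 6 genes the shRNA points lie on 1 side of the 20 mM control points, above them for 5 genes and below them for PGD.

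In the pentose phosphate branch an NADPH-making step fell. PGD, the cytosolic 6-phosphogluconate dehydrogenase, had 48.1 and 48.1 FPKM with shRNA 2 and 42.5 and 40.6 FPKM with shRNA 1, against 65.1 and 63.2 FPKM in the 20 mM controls. Both knockdown groups were below both controls, and the log2 change was -0.41 ± 0.08 (SE, limma adjusted p = 0.0138) with shRNA 2 and -0.62 ± 0.08 (SE, limma adjusted p = 0.00351) with shRNA 1. The call with shRNA 1 was kept in all 8 fits that left out 1 library, and that with shRNA 2 was lost without either 20 mM control (up to a limma adjusted p of 0.107). H6PD is the enzyme of the endoplasmic reticulum that starts the oxidative arm in its lumen. It had 6.54 and 6.15 FPKM with shRNA 2 and 3.05 and 2.78 FPKM with shRNA 1, against 3.69 and 3.48 FPKM in the 20 mM controls. It was above the controls with shRNA 2, at 0.68 ± 0.11 (SE, limma adjusted p = 0.0083), and below them with shRNA 1, at -0.23 ± 0.11 (SE, limma adjusted p = 0.206), which did not pass. The H6PD call with shRNA 2 was lost without either 20 mM control (up to a limma adjusted p of 0.0632). PGLS, the lactonase of the oxidative arm, had 13.5 and 11.8 FPKM with shRNA 2 and 9.14 and 8.29 FPKM with shRNA 1, against 9.79 and 10.5 FPKM in the 20 mM controls, and passed with neither.

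Among the steps that rearrange sugar phosphates, RPIA, which makes ribose 5-phosphate, had 20.1 and 20.00 FPKM with shRNA 2 and 32.4 and 30.01 FPKM with shRNA 1, against 32.8 and 29.1 FPKM in the 20 mM controls. The shRNA 2 libraries were the lowest of all 8, and the shRNA 1 libraries overlapped the controls. The change was -0.60 ± 0.09 (SE, limma adjusted p = 0.00634) with shRNA 2, a call lost without the first 20 mM control (limma adjusted p 0.0583), and 0.02 ± 0.09 (SE, limma adjusted p = 0.929) with shRNA 1. TKT, the transketolase, had 54.5 and 49.3 FPKM with shRNA 2 and 36.02 and 32.5 FPKM with shRNA 1, against 48.3 and 48.03 FPKM in the 20 mM controls. It was lowest in the shRNA 1 libraries, with a change of -0.48 ± 0.09 (SE, limma adjusted p = 0.0153), and did not pass with shRNA 2, at 0.10 ± 0.09 (SE, limma adjusted p = 0.507). The TKT call was lost without any single library of its comparison (up to a limma adjusted p of 0.103). RPE, the epimerase, had 20.8 and 21.9 FPKM with shRNA 2 and 14.1 and 17.5 FPKM with shRNA 1, against 17.98 and 17.9 FPKM in the 20 mM controls. TALDO1, the transaldolase, had 60.2 and 49.3 FPKM with shRNA 2 and 46.5 and 39.2 FPKM with shRNA 1, against the control values above. Neither passed with either shRNA, and 23.8% of RPE exon bases overlap KANSL1L on the other strand.

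PRPS1 and PRPS2, the enzymes that make the activated ribose PRPP for nucleotide synthesis, passed with different shRNAs. PRPS1 had 34.4 and 34.6 FPKM with shRNA 2 and 24.8 and 24.4 FPKM with shRNA 1, against 28.2 and 27.95 FPKM in the 20 mM controls. It was highest in the shRNA 2 libraries, with a change of 0.29 ± 0.08 (SE, limma adjusted p = 0.0431), a call lost in all 8 fits that left out 1 library (up to a limma adjusted p of 0.191 without the second 20 mM control). PRPS1P2, a processed pseudogene that may share its reads, was at 0.628 to 2.71 FPKM. PRPS2 had 23.2 and 25.4 FPKM with shRNA 2 and 20.3 and 20.6 FPKM with shRNA 1, against 25.8 and 25.4 FPKM in the 20 mM controls. Its change with shRNA 1 was -0.31 ± 0.09 (SE, limma adjusted p = 0.0468), lost in 6 of 8 such fits (up to 0.199 without the first 20 mM control, limma adjusted p). Both the PRPS1 and the PRPS2 call were also lost in the read-based fit and under quantile normalization. RBKS had 0.677 and 0.624 FPKM with shRNA 2 and 1.35 and 1.31 FPKM with shRNA 1, against 0.767 and 0.4701 FPKM in the 20 mM controls. It is among the 11 read-based calls with shRNA 1, but the shRNA 1 libraries also carried it past the filter, so that call is no independent result.

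Of the UDP sugar and Leloir enzymes, UGP2 alone passed against the controls in the log2(FPKM + 1) fit. UGP2, which makes UDP-glucose, had 13.7 and 14.6 FPKM with shRNA 2 and 9.08 and 9.06 FPKM with shRNA 1, against 7.39 and 6.94 FPKM in the 20 mM controls. Both knockdown groups were above both controls, and the shRNA 2 libraries were highest. Its change was 0.89 ± 0.09 (SE, limma adjusted p = 0.00144) with shRNA 2, 0.30 ± 0.09 (SE, limma adjusted p = 0.0593) with shRNA 1 and 0.60 ± 0.08 (SE, limma adjusted p = 0.00399) for the mean of both. The last call was lost without the second 20 mM control (limma adjusted p 0.0541). UGDH, which oxidises UDP-glucose to UDP-glucuronate, had 20.04 and 23.2 FPKM with shRNA 2 and 17.9 and 18.4 FPKM with shRNA 1, against 18.8 and 16.5 FPKM in the 20 mM controls. UXS1, which turns UDP-glucuronate into UDP-xylose, had 5.64 and 6.34 FPKM with shRNA 2 and 7.58 and 8.18 FPKM with shRNA 1, against 6.61 and 6.92 FPKM in the 20 mM controls. Neither passed, and UXS1 lay on opposite sides of the controls with the 2 shRNAs. GALK1, the galactokinase, had 16.8 and 11.6 FPKM with shRNA 2 and 7.84 and 4.98 FPKM with shRNA 1, against 9.66 and 12.1 FPKM in the 20 mM controls. Its libraries of a group lay far apart, the SE was 0.26 on the log2 scale, and it passed with neither shRNA. GALT, the uridylyltransferase of the Leloir pathway, had 2.07 and 2.03 FPKM with shRNA 2 and 2.83 and 3.06 FPKM with shRNA 1, against 2.198 and 1.77 FPKM in the 20 mM controls, and did not pass; 18.7% of its exon bases are shared with other genes of the same strand. In the read-based fit GALK1 and GALT passed with shRNA 1.

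In the mannose and fucose branch the fucose step rose with each shRNA, and MPI, GMPPA and PMM2 each passed with 1 of them. GMDS, which starts GDP-fucose synthesis from GDP-mannose, had 5.56 and 4.56 FPKM with shRNA 2 and 7.07 and 5.5004 FPKM with shRNA 1, against 2.86 and 3.04 FPKM in the 20 mM controls. Its knockdown libraries were all above both controls, and those of the 2 shRNAs overlapped each other. The change was 0.61 ± 0.15 (SE, limma adjusted p = 0.0311) with shRNA 2 and 0.87 ± 0.15 (SE, limma adjusted p = 0.00956) with shRNA 1. Each of these calls was lost in 3 of 8 fits that left out 1 library (up to limma adjusted p values of 0.153 and 0.0685, both without the first 20 mM control). MPI, which links fructose 6-phosphate to mannose 6-phosphate, had 5.73 and 5.21 FPKM with shRNA 2 and 3.75 and 3.59 FPKM with shRNA 1, against 2.89 and 3.71 FPKM in the 20 mM controls. It was above the controls with shRNA 2, at 0.59 ± 0.12 (SE, limma adjusted p = 0.0177), and overlapped them with shRNA 1. FAM219B lies on the other strand across 24.6% of MPI exon bases, and its own level was 2.75 and 2.65 FPKM with shRNA 2, against 4.16 and 2.92 FPKM in the 20 mM controls.

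GMPPA, the regulatory partner of the enzyme that makes GDP-mannose, had 22.6 and 19.4 FPKM with shRNA 2 and 11.6 and 10.6 FPKM with shRNA 1, against 11.1 and 11.9 FPKM in the 20 mM controls. The shRNA 2 libraries were the highest of all 8, with a change of 0.81 ± 0.13 (SE, limma adjusted p = 0.00764), and the shRNA 1 libraries overlapped the controls. The catalytic subunit GMPPB had 3.93 and 3.31 FPKM with shRNA 2 and 3.72 and 3.48 FPKM with shRNA 1, against 3.71 and 3.95 FPKM in the 20 mM controls; the groups overlapped and it did not pass. Reads of GMPPB are uncertain, since 42.3% of its exon bases are shared with AMIGO3, listed at 0 FPKM in the 6 libraries at 20 mM, and 17.3% lie across from RNF123. PMM2, the phosphomannomutase of the glycosylation pathway, had 3.44 and 3.64 FPKM with shRNA 2 and 5.07 and 5.87 FPKM with shRNA 1, against 3.902 and 3.88 FPKM in the 20 mM controls. It was highest with shRNA 1, at 0.40 ± 0.11 (SE, limma adjusted p = 0.0456), a call lost in 6 of 8 fits that left out 1 library (up to a limma adjusted p of 0.23 without the second shRNA 1 library), and 16.1% of its exon bases are shared with AC022167.2 on the same strand. Its paralogue PMM1 had 4.41 and 3.62 FPKM with shRNA 2 and 3.97 and 3.54 FPKM with shRNA 1, against 4.06 and 3.59 FPKM in the 20 mM controls, and the groups overlapped. The calls of GMPPA, CMAS and MPI with shRNA 2 were lost without the first 20 mM control, at limma adjusted p values of 0.0621, 0.0679 and 0.108, and that of MPI also without the first shRNA 2 library.

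In the direct comparison of the 2 shRNAs the members that passed came from all 4 branches. For shRNA 2 minus shRNA 1, 14 of 31 members passed, 12 higher with shRNA 2 and 2 lower, where 22.2% of all genes passed, 13% higher and 9.13% lower. Under quantile normalization the split was 9 higher and 3 lower, where 10.9% of all genes were higher and 11.2% lower, and the read-based fit called 18 members (28.4% of all genes). With protein-coding genes only, 58.1% of members and 37.7% of those genes passed this comparison. The libraries of the 2 shRNAs did not overlap for 27 members and for 60% of all genes. Against the same controls, 15 members had opposite signs with the 2 shRNAs. This count includes changes near 0, such as 0.05 with shRNA 2 and -0.02 with shRNA 1 for PMM1. The share of all genes with opposite signs was not counted. The largest differences among those that passed were in GALK1 at 1.04 ± 0.26 (SE, limma adjusted p = 0.0328), GNE at 1.02 ± 0.15 (SE, limma adjusted p = 0.00538), H6PD at 0.91 ± 0.11 (SE, limma adjusted p = 0.00268) and GMPPA at 0.86 ± 0.13 (SE, limma adjusted p = 0.00574). UAP1, already above the controls with both, was higher with shRNA 2 by 0.65 ± 0.09 (SE, limma adjusted p = 0.00421). RPIA and PMM2 were lower with shRNA 2, at differences of -0.61 ± 0.09 (SE, limma adjusted p = 0.00534) and -0.51 ± 0.11 (SE, limma adjusted p = 0.019). The other 7 members that passed were higher with shRNA 2, by 0.41 for CMAS, 0.42 for RPE, 0.47 for PRPS1 and MPI, 0.49 for PGLS and 0.59 for TKT and UGP2. PGM3, PGD and GMDS did not pass this comparison, at 0.28 ± 0.12 (SE, limma adjusted p = 0.139), 0.21 ± 0.08 (SE, limma adjusted p = 0.101) and -0.26 ± 0.15 (SE, limma adjusted p = 0.252). MAPKAPK2 was itself lower with shRNA 2 than with shRNA 1, at a difference of -0.95 ± 0.09 (SE, limma adjusted p = 0.00124), and its part in these differences was not tested. Without the second shRNA 1 library 7 members and 8.22% of all genes passed, and GALK1 did not (limma adjusted p 0.164).

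Removal of glucose for 24 h left every member short of the threshold in the log2(FPKM + 1) fit. None of the 31 members passed for 0 mM minus 20 mM in control shRNA cells by limma, and neither did any of the 16239 genes (0%); at an unadjusted p under 0.05, 3 members and 1421 genes (8.75%) did. By the read-based fit (limma voom on the reads recovered from the FPKM), 1 member and 0.172% of all genes passed. The median log2 change of the 31 members was -0.05, and that of all genes was -0.01. The 2 libraries at 0 mM lay outside the range of the 2 at 20 mM for 18 of the 31 members and for 41.3% of all genes. The SEs of the members' changes ran from 0.08 to 0.26 on the log2 scale. Changes well above their SE also fell short, such as 0.64 ± 0.11 (SE, limma adjusted p = 0.248) for H6PD. The absence of calls therefore does not exclude changes larger than these SEs.

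**Figure D4:**
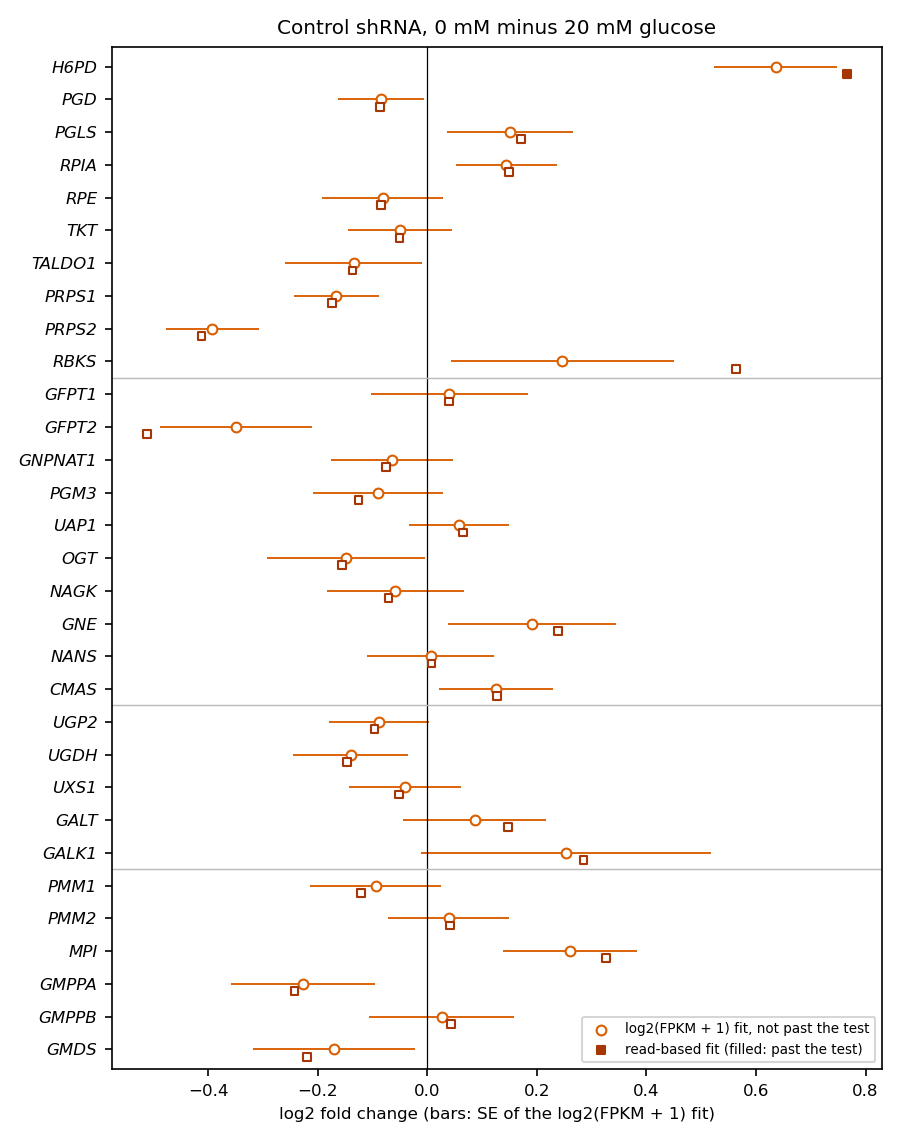
Log2 fold change of control shRNA cells at 0 mM over 20 mM glucose for the 31 genes, as circles with bars of 1 SE for the log2(FPKM + 1) fit and as squares for the read-based fit. H6PD lies furthest to the right, at 0.64 in the first fit and 0.77 in the second, and its square alone is filled because it alone passed.

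H6PD was the member called by the read-based fit. It had 5.56 and 6.73 FPKM at 0 mM, against 3.69 and 3.48 FPKM at 20 mM, and both 0 mM libraries were above both 20 mM libraries. The counting error of these values was small beside the difference: the exact 95% Poisson interval was 5.24 to 5.91 FPKM in the first 0 mM library and 6.32 to 7.17 FPKM in the second, against 3.40 to 4.01 and 3.20 to 3.77 FPKM in the 20 mM libraries. The change was 0.64 ± 0.11 (SE, limma adjusted p = 0.248) in the log2(FPKM + 1) fit and 0.77 in the read-based fit (limma voom adjusted p = 0.0448). The call was lost in 6 of the 8 read-based fits that left out 1 library. The adjusted p of limma voom was 0.075 and 0.582 without the first and second 0 mM library, 0.591 and 0.905 without the first and second 20 mM library, and 0.148 and 0.145 without the first and second shRNA 1 library. Without the first or the second shRNA 2 library it was 0.000671 or 0.000692.

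The next 3 members by p for glucose were lower at 0 mM and did not pass. PRPS2 had 18.7 and 19.9 FPKM at 0 mM, against 25.8 and 25.4 FPKM at 20 mM, a change of -0.39 ± 0.09 (SE, limma adjusted p = 0.345). GFPT2 had 1.76 and 2.05 FPKM at 0 mM, against 2.99 and 2.42 FPKM at 20 mM, a change of -0.35 ± 0.14 (SE, limma adjusted p = 0.553). PRPS1 had 24.3 and 25.5 FPKM at 0 mM, against 28.2 and 27.95 FPKM at 20 mM, a change of -0.17 ± 0.08 (SE, limma adjusted p = 0.608). In all 3 genes both 0 mM libraries were below both 20 mM libraries. The genes that passed with each shRNA alone did not pass for glucose either. UAP1 had 9.94 and 9.55 FPKM at 0 mM, against 8.91 and 9.74 FPKM at 20 mM. PGM3 had 3.604 and 4.62 FPKM at 0 mM, against 4.21 and 4.63 FPKM. GMDS had 2.76 and 2.27 FPKM, against 2.86 and 3.04 FPKM, and PGD 60.2 and 60.6 FPKM, against 65.1 and 63.2 FPKM. For GMDS and PGD both 0 mM libraries were below both 20 mM libraries, while the groups overlapped for UAP1 and PGM3. The log2 changes of UAP1, PGM3, GMDS and PGD were 0.06, -0.09, -0.17 and -0.08. All other members had log2 changes between -0.23 for GMPPA and 0.26 for MPI.

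Ratios of related genes within a library do not depend on the scaling of that library. GMPPA was 5.74 and 5.85 times GMPPB in FPKM with shRNA 2, 3.12 and 3.04 times with shRNA 1 and 2.45 and 2.504 times in control cells at 0 mM, against 3.00 and 3.01 times at 20 mM. The shRNA 2 ratios were the highest of all 8 libraries and the 0 mM ratios the lowest. GFPT1 was 5.67 and 5.88 times GFPT2 at 0 mM, 2.22 and 3.24 times with shRNA 2 and 4.73 and 6.02 times with shRNA 1, against 3.62 and 4.32 times at 20 mM. The 0 mM libraries were above the 20 mM controls and the shRNA 2 libraries below them. PRPS1 was 1.30 and 1.28 times PRPS2 at 0 mM, 1.48 and 1.36 times with shRNA 2 and 1.22 and 1.18 times with shRNA 1, against 1.09 and 1.10 times at 20 mM. In all 6 libraries outside the 20 mM controls this ratio was above both of them. PMM1 was 0.919 and 0.830 times PMM2 at 0 mM, 1.28 and 0.994 times with shRNA 2 and 0.783 and 0.603 times with shRNA 1, against 1.04 and 0.926 times at 20 mM. These ratios were not tested.

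**Figure D5:**
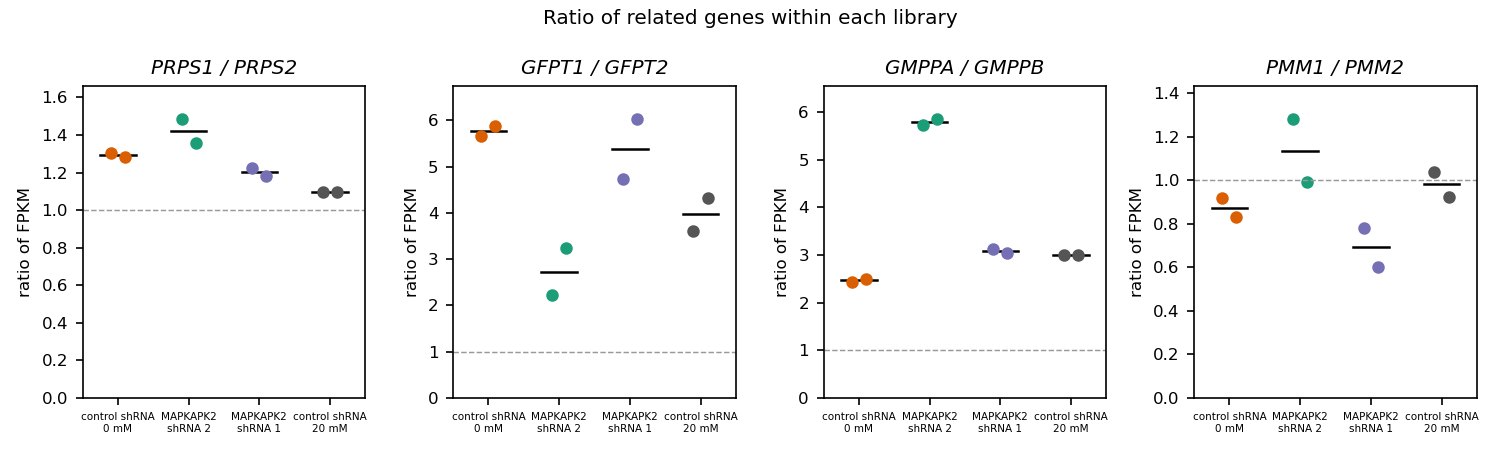
Ratio of the FPKM of related genes within each library (points) and the group mean (line) for PRPS1 over PRPS2, GFPT1 over GFPT2, GMPPA over GMPPB and PMM1 over PMM2; the dashed line marks equal FPKM. The shRNA 2 points for GMPPA over GMPPB stand at 5.74 and 5.85, against 3.00 and 3.01 in control cells at 20 mM.

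Enzymes next to these branches were counted in a list of their own. Of 18 tested neighbours, 4 rose and 1 fell with shRNA 2 (22.2% and 5.56%, against 11.1% and 7.73% of all genes), and 6 rose and none fell with shRNA 1 (33.3% and 0%, against 9.35% and 10.5% of all genes), at median log2 changes of 0.14 and 0.16, beside 0.01 and -0.01 over all genes. PGM1, which interconverts glucose 6-phosphate and glucose 1-phosphate, the substrate of UGP2, had 20.98 and 17.7 FPKM with shRNA 2 and 14.9 and 12.7 FPKM with shRNA 1, against 6.84 and 6.79 FPKM in the 20 mM controls. Both knockdown groups were above the controls, with changes of 1.38 ± 0.12 (SE, limma adjusted p = 0.000789) and 0.91 ± 0.12 (SE, limma adjusted p = 0.00384). GNPDA1, which breaks glucosamine 6-phosphate down to fructose 6-phosphate, had 31.5 and 30.3 FPKM with shRNA 2 and 24.6 and 24.3 FPKM with shRNA 1, against 14.5 and 14.6 FPKM in the 20 mM controls. It also rose with both, by 1.04 ± 0.08 (SE, limma adjusted p = 0.00048) and 0.71 ± 0.08 (SE, limma adjusted p = 0.00214). DERA, which splits deoxyribose 5-phosphate, had 13.8 and 13.4 FPKM with shRNA 2 and 5.81 and 4.78 FPKM with shRNA 1, against 6.16 and 6.203 FPKM in the 20 mM controls, and rose with shRNA 2 by 1.02 ± 0.12 (SE, limma adjusted p = 0.00225). UAP1L1, a paralogue of UAP1, rose with shRNA 1 by 0.68 ± 0.13 (SE, limma adjusted p = 0.0155), a call lost without any single library of its own comparison.

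Genes that carry or use the activated sugars were counted in 3 further lists. The first held 13 tested transporters of the SLC35 family, not all of which carry nucleotide sugars. With shRNA 2, 2 rose and 2 fell (15.4% each, against 11.1% and 7.73% of all genes). With shRNA 1, 4 rose and 1 fell (30.8% and 7.69%, against 9.35% and 10.5%). The median log2 changes were 0.02 with shRNA 2 and 0.22 with shRNA 1. SLC35B3, a transporter of the sulfate donor PAPS, had 5.53 and 6.26 FPKM with shRNA 2 and 8.602 and 8.23 FPKM with shRNA 1, against 3.700 and 4.09 FPKM in the 20 mM controls, and rose with shRNA 1 by 0.94 ± 0.14 (SE, limma adjusted p = 0.00569). SLC35A1, the CMP-sialic acid transporter, rose with shRNA 2 by 0.64 ± 0.13 (SE, limma adjusted p = 0.0184), and SLC35D1, which carries UDP-glucuronate, rose with shRNA 1 by 0.93 ± 0.15 (SE, limma adjusted p = 0.00872). SLC35A4 changed with shRNA 2 by -0.67 ± 0.09 (SE, limma adjusted p = 0.00376) and had 9.66 and 8.85 FPKM with shRNA 2 and 20.8 and 19.9 FPKM with shRNA 1, against 15.8 and 14.7 FPKM in the 20 mM controls. Its libraries were lowest with shRNA 2 and highest with shRNA 1. The SLC35B3 call was lost without the first 20 mM control, the SLC35A1 call without that library or the second shRNA 2 library, and the SLC35D1 call without the second 20 mM control or either shRNA 1 library. Of 19 enzymes that build the dolichol-linked N-glycan precursor, none rose with either shRNA, while 3 fell with shRNA 2 (15.8%, against 7.73% of all genes) and 2 with shRNA 1 (10.5%, equal to the share of all genes), at median log2 changes of -0.17 and 0.04. DPM1, the catalytic subunit that moves mannose from GDP-mannose to dolichol, had 23.97 and 20.6 FPKM with shRNA 2 and 24.4 and 25.9 FPKM with shRNA 1, against 42.99 and 50.5 FPKM in the 20 mM controls. Every knockdown library was below both controls, with changes of -1.04 ± 0.12 (SE, limma adjusted p = 0.00198) and -0.86 ± 0.12 (SE, limma adjusted p = 0.00421).

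Of 9 tested enzymes that start and extend proteoglycan chains, 4 rose and 1 fell with shRNA 2 (44.4% and 11.1%, against 11.1% and 7.73% of all genes), and 3 rose and none fell with shRNA 1 (33.3% and 0%, against 9.35% and 10.5%), at median log2 changes of 0.27 and 0.36. XYLT2, the xylosyltransferase that uses UDP-xylose, had 16.1 and 13.96 FPKM with shRNA 2 and 13.4 and 11.3 FPKM with shRNA 1, against 7.96 and 8.11 FPKM in the 20 mM controls, with changes of 0.82 ± 0.12 (SE, limma adjusted p = 0.00566) and 0.56 ± 0.12 (SE, limma adjusted p = 0.0217). EXTL3, a glycosyltransferase that starts heparan sulfate chains, had 13.4 and 14.4 FPKM with shRNA 2 and 15.2 and 15.5 FPKM with shRNA 1, against 9.16 and 8.94 FPKM in the 20 mM controls, with changes of 0.57 ± 0.08 (SE, limma adjusted p = 0.00568) and 0.70 ± 0.08 (SE, limma adjusted p = 0.00298). In both genes all 4 knockdown libraries were above the controls. The XYLT2 call with shRNA 1 was lost without any single library of that comparison (up to a limma adjusted p of 0.13), and the EXTL3 call with shRNA 2 without the second 20 mM control.

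For glucose, none of the genes tested in these 4 lists passed. The 3 changes with the smallest p were those of OGA, B3GALT6 and SLC35D2. OGA, the enzyme that removes GlcNAc from proteins, had 31.5 and 37.3 FPKM at 0 mM, against 45.5 and 46.9 FPKM at 20 mM, and a log2 change of -0.42 ± 0.12 (SE, limma adjusted p = 0.419). B3GALT6, a galactosyltransferase of the proteoglycan linker, had 10.8 and 10.1 FPKM at 0 mM, against 6.86 and 8.44 FPKM at 20 mM, and a change of 0.41 ± 0.12 (SE, limma adjusted p = 0.436). SLC35D2, a nucleotide sugar transporter, had 5.63 and 6.06 FPKM at 0 mM, against 4.21 and 4.62 FPKM at 20 mM, and a change of 0.34 ± 0.11 (SE, limma adjusted p = 0.483). Both 0 mM libraries of OGA were below, and those of B3GALT6 and SLC35D2 above, the 20 mM libraries.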

How the data were processed

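Libraries were made from total RNA by random-hexamer priming, per the labels' protocols. The authors deposited FPKM per gene; featureCounts 1.5.0-p3, HISAT2 2.0.5 and DESeq2 1.20.0 are named, without roles, per the submitters' processing notes. No source used here gives the strand setting, so antisense genes that overlap cannot be separated. All 58735 identifiers, positions and lengths equal those of GENCODE 29 (GRCh38).

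Groups came from the labels. Genes that reached 1 FPKM in 2 or more libraries were fitted as log2(FPKM + 1) in 1 limma model (limma 3.58.1, R 4.3.3, eBayes with trend; 4 group means, 4 residual degrees of freedom), with Benjamini-Hochberg adjustment over 16239 genes. FPKM multiplied by exon length gave whole reads for 100% of values, with a tolerance of 0.001 of 1 read that widens with the value. A limma voom fit to these reads called 28 genes for glucose, 3936 with shRNA 2 and 4133 with shRNA 1. The library size behind the FPKM, used in both fits, was not the sum of gene-assigned reads. That sum was 0.965 and 0.999 times this size at 0 mM and 1.045 and 1.053 times with shRNA 2. It was 0.970 and 0.932 times with shRNA 1 and 0.967 and 0.980 times in the 20 mM controls. Poisson intervals cover counting error only. Both fits were tested on simulated data.

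The 31 members and the 4 further lists were chosen with earlier results of these data known. Every member is named; fold changes are given where it passed, or for the 4 smallest p for glucose, and for up to 3 genes of each further list. Values of members that did not pass were added beside them. Leaving out each library of the read-based glucose fit was added after the data were seen.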

Additional observations from a re-analysis of the deposited data

Results flagged for a closer look

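The change with shRNA 2 differed from the change with shRNA 1 at 14 members, by the limma contrast of the 2 shRNAs (adjusted p under 0.05 over all genes). The control libraries enter this contrast through the shared estimate of the spread. In a fit of only the groups compared the GNE call was lost (limma adjusted p 0.0575). Those of TKT, PRPS1, PMM2, PGLS, CMAS, GALK1, MPI and RPE were lost as well. In the pentose phosphate branch the difference, shRNA 2 minus shRNA 1 on the log2(FPKM + 1) scale, was 0.91 for H6PD, 0.59 for TKT, 0.49 for PGLS, 0.47 for PRPS1, 0.42 for RPE and -0.61 for RPIA. In the hexosamine and sialic acid branch it was 1.02 for GNE, 0.65 for UAP1 and 0.41 for CMAS. It was 1.04 for GALK1 and 0.59 for UGP2 among the UDP sugar and Leloir genes, and 0.86 for GMPPA, 0.47 for MPI and -0.51 for PMM2 among the mannose and fucose genes. H6PD, UAP1, RPIA, GNE, GMPPA and UGP2 passed in all 8 fits that left out 1 library. The call of RPE was lost in 7 of them, that of MPI in 6, of CMAS in 5, of GALK1 in 4, of PMM2 and PGLS in 3 each, and of TKT and PRPS1 in 1 each. Without either 20 mM control the calls of CMAS, GALK1 and RPE were lost, and without either 0 mM library those of MPI and RPE.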

How the results depend on the processing

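No named change that passed in the log2(FPKM + 1) fit reversed under an alternative, but small changes that did not pass (GFPT1 with shRNA 2, RPIA with shRNA 1, PGM3 for glucose) changed sign when 1 library was left out. Values of named members that entered the alternatives kept their side of the threshold in 396 comparisons with other settings, while 33 calls were lost and 1 was gained. With 1 library left out they kept it in 292, while 82 calls were lost and 2 were gained. For glucose, 0 genes passed in the planned fit, 6 without the filter on low values, 8 with protein-coding genes only, 28 by the read-based fit and 0 to 1 with a library left out. Read-based fits that left out 1 library (chosen after seeing the data) called 6 and 1 genes without the first and second 0 mM library, 0 without either 20 mM control, 7 without either shRNA 1 library, and 196 and 194 without the first and second shRNA 2 library. Among members these fits called 1 (H6PD) with all libraries or without either shRNA 2 library, and otherwise 0. With protein-coding genes only, 13 members (41.9%) and 34.6% of those genes passed with shRNA 1. Without the filter, 1808 genes passed for the mean of both shRNAs, where 2815 did with it. Fitting only the groups compared left 4 members and 961 genes with shRNA 2, and 5 members and 1136 genes for shRNA 2 minus shRNA 1. With a library left out, members called ranged from 3 to 10 with shRNA 2, 2 to 10 with shRNA 1, 3 to 7 for their mean and 7 to 15 for their difference. Over all genes the ranges were 1015 to 3026, 942 to 4054, 686 to 3437 and 1335 to 3473. Fits without a library leave a group with 1, which is assumed to vary like the others. The replicate block, for numbers that the labels give no meaning, called 0 members for glucose, 12 with shRNA 2, 9 with shRNA 1, 6 for their mean and 15 for their difference, and 0, 3332, 3470, 3018 and 3806 of all genes. Deviations of libraries with the same number correlated between -0.0295 and 0.179, so the numbers were not taken as pairs. The depth of 30 to 91 reads limits RBKS.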
